A study of Mus musculus with 7 samples.

Results

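Nodal is a secreted ligand of the TGF-β family that patterns the early embryo and is made by mouse embryonic stem cells (ESCs). It is cut from a precursor by proprotein convertases such as Furin and Pcsk6, and it acts with related ligands such as Gdf3 through activin receptors that phosphorylate Smad2 and Smad3. Its signal switches on its own inhibitors, the secreted Lefty proteins and the intracellular inhibitors Smad7 and Skil, so the pathway limits itself. The promoters of 8 genes of this pathway were examined here for binding of Tip60, Hdac6 and p400: Nodal, Gdf3, Lefty1, Lefty2, Smad7, Skil, Furin and Pcsk6. They were found by their symbols among 36733 transcription start sites (TSSs), here called rows, that carry 17689 gene symbols. Of the 8 genes, 7 had a row and Furin had 2, which gave 8 rows. No row carried the symbol Pcsk6, so it was not analysed here.

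Tip60 is a histone acetyltransferase and p400 an ATP-dependent remodeler, and both are subunits of the Tip60-p400 complex. Hdac6 is a class II histone deacetylase. The study asked whether Hdac6 resides with this complex on chromatin of E14 mouse ESCs and whether the complex needs Hdac6 to bind. ChIP-seq, in which fixed chromatin is pulled down with an antibody and sequenced, was performed on 7 samples, 1 per condition.

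Tip60 was pulled down with the Flag-M2 antibody from Tip60-H3F ESCs, in which a copy of the endogenous Tip60 gene ends in a histidine and Flag tag (H3F), upon GFP KD (the control knockdown) or Hdac6 KD. Hdac6 was pulled down with the same antibody from Hdac6-H3F ESCs upon GFP KD or Tip60 KD. The genotype field of the sample titled as Tip60 KD reads Hdac6 KD, and the title was followed here, so each statement on that knockdown rests on the title. Wild-type E14 cells without a tag gave the background of the Flag antibody, and no knockdown is given for them. Endogenous p400 was pulled down with its own antibody in GFP KD or Hdac6 KD cells for which no tag is given. This follows the antibody field of those samples, since the protocol text they share with the others describes beads coupled to the Flag antibody. Knockdown cells were collected 72 hr after infection with lentivirus. Because there were no replicates, the spread between cultures is unknown, and every interval and test below covers only the sampling of reads. Reads copied by PCR were kept, so reads are not all independent molecules.

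The samples were normalized to between 9226740 reads (for Hdac6 with Tip60 KD) and 31375500 (for p400 with Hdac6 KD). A median row held 8 to 21 reads within 500 bp of the TSS, the window used here as the promoter, and values are given as reads and as reads scaled to a depth of 1000000 (rpm). None of the 50-base words of the 8 promoters has another exact copy in the mm9 genome. Copies with a mismatch, which the study's mapping allowed, were not sought. These 7 samples carry no expression and the study's microarrays were not used here, so the cell type was checked only at promoters. In the 4 samples with unperturbed factors, 10 rows of 8 ESC marker genes had median percentiles of 63.2 to 81.2. For 4 rows of liver, heart, glia and B cell genes they were 28.3 to 62.5. Percentiles of a level, here and below, are among all rows of a sample, which for p400 are 22704 rows with a RefSeq identifier. ChIP background and promoter base composition differ between these lists, so the check is weak.

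GC content divides the 8 rows. It was 80.0% within 500 bp of the Furin TSS NM_011046, 78.9% at Skil and 70.6% at Smad7, against a median of 52.9% over all rows. It was 60.5% at Nodal, 57.6% at Lefty1, 54.4% at Lefty2, 50.3% at Gdf3 and 49.5% at the second Furin TSS, NM_001081454. Over all rows, the ratio of Hdac6 to untagged reads was higher in GC-rich rows, from a median of 0.499 between 27.5% and 30.0% GC to 5.71 between 77.5% and 80.0%. The ratio of Tip60 upon Hdac6 KD to GFP KD went the other way, from 1.11 to 0.379 over the same bins. Medians of the rows in the same bin of 2.5 points of GC are therefore given for several of the ratios below.

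**Figure D1:**
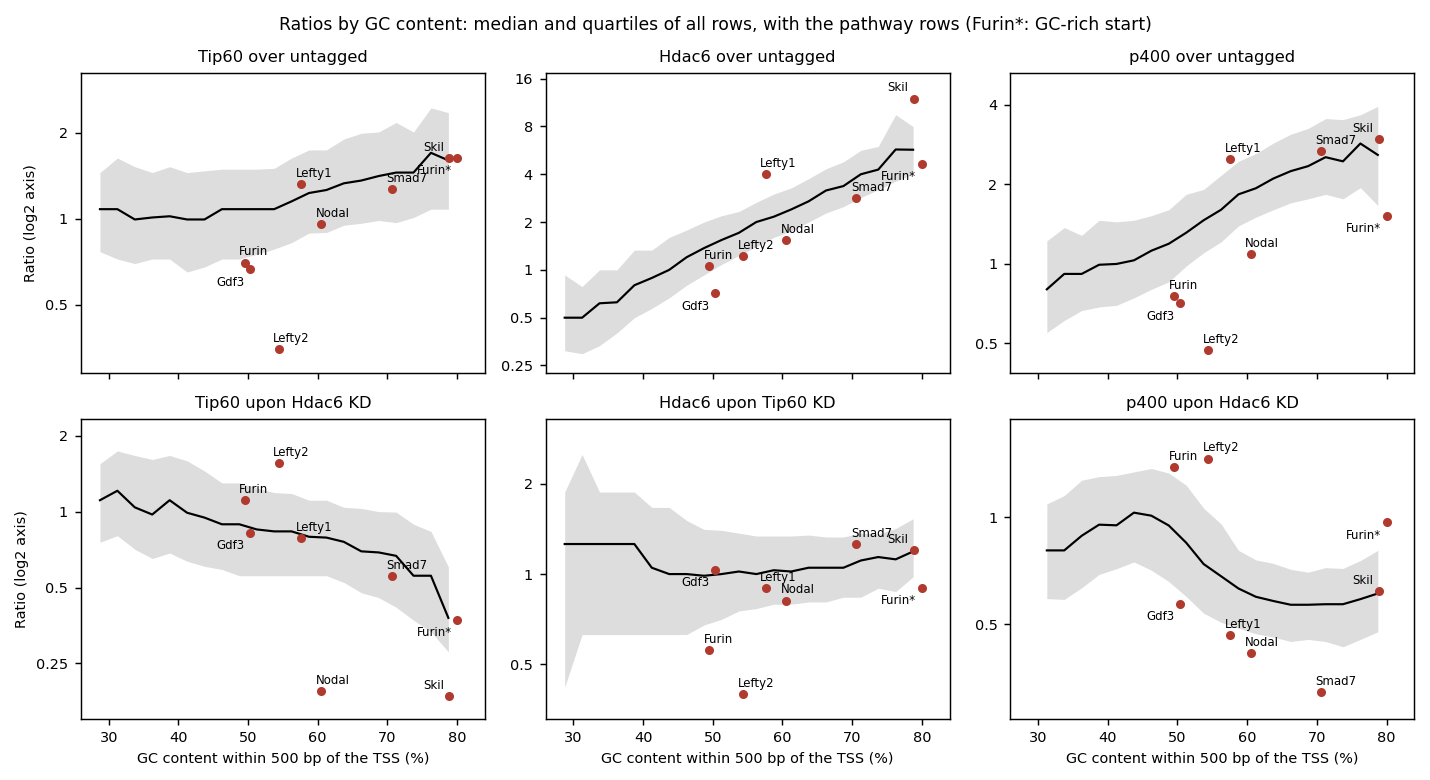
Ratio of reads within 500 bp of the TSS (vertical, log2 axis) against GC content (horizontal, percent) for the 6 comparisons. The line and shading give the median and quartiles of all rows in each bin with at least 20 rows, and the red points the 8 pathway rows (Furin* is the GC-rich TSS). Lefty2 lies below the shading for Tip60 and p400 over untagged, and Nodal lies far below it for Tip60 upon Hdac6 KD.

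The ligand genes came first. The TSS of Nodal used in the files (NM_013611, mm9, chr10:60881048-60881048, plus strand) lies inside an exon of the annotated gene, 328 bases after the nearest annotated start. The 250 bases before this TSS are shown because most promoter reads of Tip60 upon GFP KD, discussed below, lie on the other side of it. Those of p400 lie on both sides. The capitals mark the Smad-binding letters CAGAC, here on the other strand. These letters occur on either strand in 49.6% of all rows from 250 bases before to 50 bases after the TSS (chr10:60880798-60881047, plus strand).

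Nodal: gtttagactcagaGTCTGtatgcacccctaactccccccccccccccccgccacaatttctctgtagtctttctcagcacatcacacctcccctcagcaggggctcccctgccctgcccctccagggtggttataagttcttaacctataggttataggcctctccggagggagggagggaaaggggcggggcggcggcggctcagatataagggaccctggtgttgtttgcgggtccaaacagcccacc

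Nodal held 23 Tip60 reads upon GFP KD (1.08 rpm, 95% Poisson interval 0.683 to 1.62) and, after Hdac6 KD, 4 (0.209 rpm, 0.0569 to 0.534). The untagged control held 26 reads (1.12 rpm, 0.734 to 1.65). Hdac6 held 20 reads upon GFP KD (1.73 rpm) and 13 upon Tip60 KD (1.41 rpm). For p400 there were 31 reads in control cells (1.22 rpm) and 16 after Hdac6 KD (0.51 rpm). The untagged value stood at percentile 98.1 of all rows and the Tip60 value at 91.0, so a high Tip60 level came with an equally high Flag background. Upon Hdac6 KD the Tip60 value dropped to percentile 11.9.

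Gdf3, a ligand that works with Nodal and the co-receptor Cripto, has its TSS at chr6:122560089-122560089 (minus strand, NM_008108), 16 bases inside the annotated gene. Gdf3 held 19 Tip60 reads in control cells and 14 after Hdac6 KD (0.89 and 0.731 rpm), against 31 in the untagged control (1.34 rpm, percentile 99.5). Hdac6 gave 11 reads upon GFP KD and 9 upon Tip60 KD (0.949 and 0.975 rpm), both near the median row. p400 gave 24 and 17 reads (0.948 and 0.542 rpm). The untagged control was thus the highest of the 7 values in rpm at this gene.

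Lefty1 and Lefty2 encode secreted antagonists that block Nodal and its co-receptors, and they lie 41920 bp apart on chromosome 1. The promoters resemble each other: 74.02% of 920 aligned bases within 500 bp of the TSSs were identical. Yet they shared no 50-base word, so a read of that length matched only 1 of them exactly. Their upstream 250 bases are printed to show this likeness beside their unlike ChIP values. Capitals mark the TATAAA box, the Smad letters CAGAC and, in Lefty1, a CCAAT box on the other strand. Lefty1 is chr1:182864920-182865169 and Lefty2 chr1:182823000-182823249, both plus strand, and the last 17 and 11 bases lie inside the annotated genes.

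Lefty1: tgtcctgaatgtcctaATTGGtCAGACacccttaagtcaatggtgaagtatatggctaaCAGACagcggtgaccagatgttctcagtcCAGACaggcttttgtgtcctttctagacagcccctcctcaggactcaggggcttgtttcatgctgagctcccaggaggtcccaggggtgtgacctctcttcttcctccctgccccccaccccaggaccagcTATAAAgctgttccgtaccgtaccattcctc

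Lefty2: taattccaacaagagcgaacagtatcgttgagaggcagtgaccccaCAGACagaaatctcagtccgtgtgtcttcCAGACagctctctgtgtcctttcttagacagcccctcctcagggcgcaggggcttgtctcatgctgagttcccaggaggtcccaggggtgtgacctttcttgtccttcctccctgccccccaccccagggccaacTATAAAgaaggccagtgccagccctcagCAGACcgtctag

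A TATAAA box starts at position -31 in Lefty1 and at -40 in Lefty2, while 12.8% of all rows hold these letters on either strand in the 300-base window. CAGAC occurs 4 times in Lefty1 and 3 times in Lefty2. None of the 8 rows holds TGTGGATT, the Foxh1 letters, which 0.849% of rows hold. GTCTAGAC, a palindromic Smad site, was found at 1 row, Smad7 (position -189), against 0.21% of all rows.

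Lefty1 held 17 Tip60 reads upon GFP KD (0.797 rpm) and 12 upon Hdac6 KD (0.626 rpm), with 14 in the untagged control (0.605 rpm). Hdac6 held 28 reads upon GFP KD (2.42 rpm, 1.61 to 3.49) and 20 upon Tip60 KD (2.17 rpm, 1.32 to 3.35), which placed Lefty1 at percentiles 98.1 and 94.5. p400 held 38 reads upon GFP KD (1.5 rpm, percentile 90.6) and 22 upon Hdac6 KD (0.701 rpm). Lefty1 was the row with the highest Hdac6 and p400 values of the 8 upon GFP KD.

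Lefty2 held 10 Tip60 reads upon GFP KD (0.469 rpm, 0.225 to 0.862) and 14 upon Hdac6 KD (0.731 rpm). The untagged control held 31 (1.34 rpm, 0.91 to 1.9; percentile 99.5). Hdac6 held 19 reads upon GFP KD (1.64 rpm) and 6 upon Tip60 KD (0.65 rpm), and p400 held 16 upon GFP KD (0.632 rpm) and 29 upon Hdac6 KD (0.924 rpm). The Tip60 interval lay entirely below the untagged one, and both subunits of the complex had more reads after Hdac6 KD than before.

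Smad7, the inhibitory Smad that blocks activated receptors, has its TSS at chr18:75527019-75527019 (plus strand, NM_001042660), at position -164 from the nearest annotated start. Another gene, RP24-263P17.1, starts 277 bases away, and reads of both cannot be told apart. Smad7 held 14 Tip60 reads in control cells and 7 after Hdac6 KD (0.656 and 0.365 rpm) and 12 in the untagged control (0.518 rpm). Hdac6 held 17 reads upon both GFP KD and Tip60 KD (1.47 and 1.84 rpm). p400 held 35 reads upon GFP KD (1.38 rpm, 0.963 to 1.92) and 14 upon Hdac6 KD (0.446 rpm, 0.244 to 0.749), and these intervals did not overlap.

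Skil encodes SnoN, a repressor that binds Smads in the nucleus. Its upstream 250 bases (chr3:30993733-30993982, plus strand, NM_001039090) and those of both Furin TSSs are shown as the extremes of base composition among the 8 rows. Furin, a protease that matures Nodal, has TSSs 2669 bp apart. The upstream bases are chr7:87547649-87547898 for NM_011046 and chr7:87550318-87550567 for NM_001081454, both minus strand. Capitals mark the Smad letters, the CCAAT box and the TATAAA box on either strand.

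Skil: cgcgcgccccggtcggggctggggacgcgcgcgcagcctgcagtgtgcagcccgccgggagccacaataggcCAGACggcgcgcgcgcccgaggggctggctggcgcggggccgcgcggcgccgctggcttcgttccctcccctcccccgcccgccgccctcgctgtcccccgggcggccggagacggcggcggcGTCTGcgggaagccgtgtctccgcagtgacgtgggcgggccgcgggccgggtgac

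Furin NM_011046: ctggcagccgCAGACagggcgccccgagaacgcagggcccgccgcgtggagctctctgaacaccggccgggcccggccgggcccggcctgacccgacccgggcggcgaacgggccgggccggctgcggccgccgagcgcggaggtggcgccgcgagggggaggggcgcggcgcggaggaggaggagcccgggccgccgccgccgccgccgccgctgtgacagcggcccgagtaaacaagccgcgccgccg

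Furin NM_001081454: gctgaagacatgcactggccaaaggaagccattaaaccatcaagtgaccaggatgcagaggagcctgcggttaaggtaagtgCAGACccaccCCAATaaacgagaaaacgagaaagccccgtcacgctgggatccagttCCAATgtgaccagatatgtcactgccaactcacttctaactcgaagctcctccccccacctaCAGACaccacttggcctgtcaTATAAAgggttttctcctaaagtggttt

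Skil holds 50 and Furin NM_011046 53 CpG dinucleotides in the 300-base window, against a median of 8 over all rows, and Furin NM_001081454 holds 8 and a TATAAA box at -28. Skil had 6 Tip60 reads in control cells and 1 after Hdac6 KD (0.281 and 0.0522 rpm) and 4 in the untagged control (0.173 rpm, percentile 5.97). Hdac6 held 24 reads upon GFP KD (2.07 rpm, 1.33 to 3.08) and 23 upon Tip60 KD (2.49 rpm, 1.58 to 3.74), while p400 held 13 and 10 (0.514 and 0.319 rpm). Skil thus combined Hdac6 percentiles of 94.8 and 97.7 with a Tip60 percentile of 11.9 and a p400 percentile of 23.3 upon GFP KD.

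Furin NM_011046 had 9 Tip60 reads in control cells, 3 after Hdac6 KD and 6 in the untagged control (0.422, 0.157 and 0.259 rpm). Hdac6 had 14 and 10 reads there (1.21 and 1.08 rpm), and p400 10 and 12 (0.395 and 0.382 rpm). Furin NM_001081454 had 11 Tip60 reads with either knockdown (0.515 and 0.574 rpm) and 17 in the untagged control (0.734 rpm, percentile 79.1). Hdac6 had 9 and 4 reads there (0.777 and 0.434 rpm), and p400 14 and 24 (0.553 and 0.765 rpm). The Flag background of the pair differed, at percentile 11.9 at the GC-rich TSS and 79.1 at the other.

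**Figure D2:**
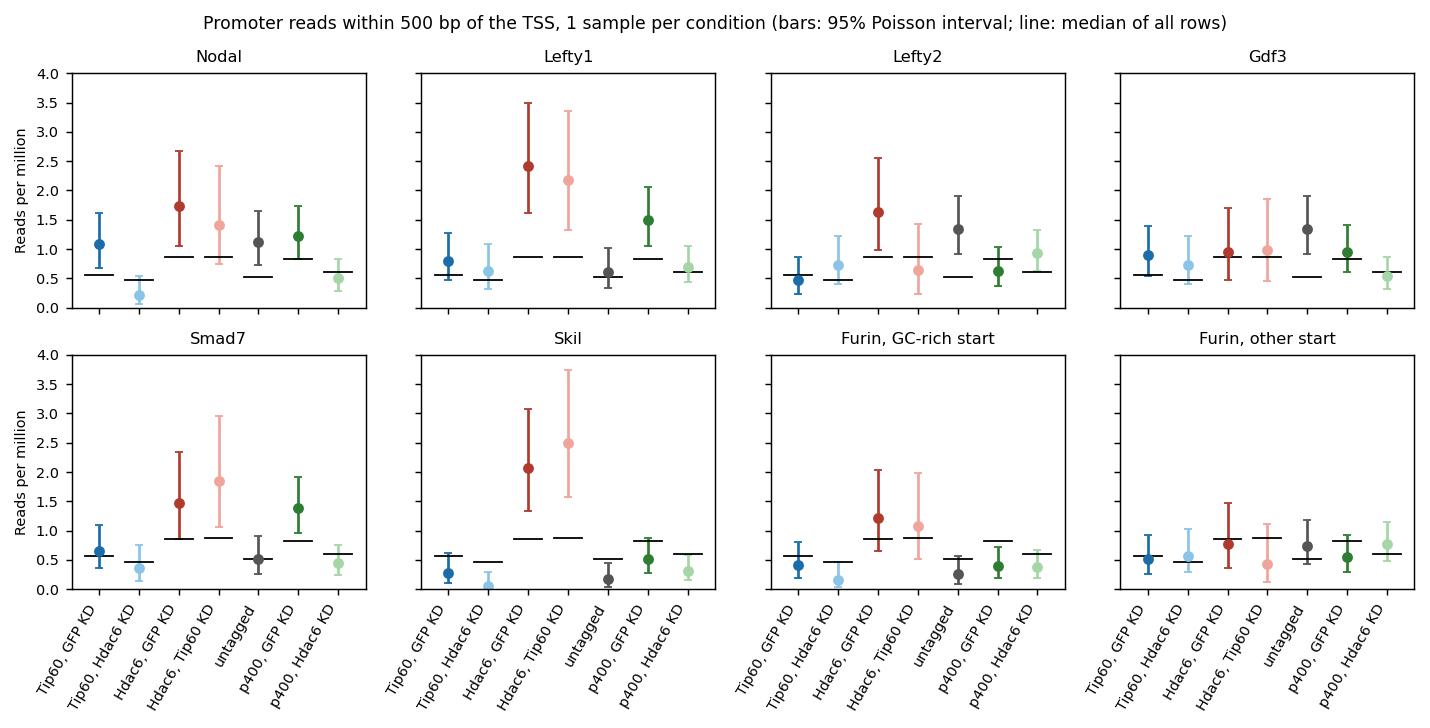
Promoter level in rpm within 500 bp of each TSS (vertical) in the 7 samples (horizontal), with the 95% Poisson interval of each count as bars and the median of all rows as a black line. Untagged values at Nodal, Lefty2 and Gdf3 (1.12, 1.34 and 1.34 rpm) stand well over the untagged median of 0.518 rpm.

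Across the 8 rows the untagged control was split. Nodal, Lefty2 and Gdf3 were at or above percentile 98 of all rows, and Skil and the GC-rich Furin TSS were at or below percentile 11.9. Tip60 upon GFP KD placed no row as high: its percentiles ran from 11.9 to 91.0, with a median of 50.0. The medians upon GFP KD were 81.4 for Hdac6 and, among its 22704 rows, 46.0 for p400.

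Whether Tip60 was bound above the Flag background was asked by setting the Tip60 sample upon GFP KD against the untagged control. No pathway row reached a 2-fold higher level, while 14.5% of the 36083 rows with a read did. The exact two-sided binomial test on reads, with Benjamini-Hochberg adjustment over all rows, called 1.37% of all rows higher and no pathway row. The ratios in rpm ran from 0.35 at Lefty2 to 1.63 at Skil and Furin NM_011046, with a median of 1.11 against 1.08 for all rows. Nodal had a ratio of 0.96 (95% interval 0.523 to 1.75), so a Tip60 level more than 1.75-fold over background was outside the interval there. Lefty2 was 2.86-fold lower than the control (ratio interval 0.153 to 0.732, adjusted p = 0.107 by the exact binomial test), past the 2-fold cutoff that 6.76% of rows passed in this direction. Gdf3 had a ratio of 0.665 (0.355 to 1.21), Lefty1 1.32 (0.611 to 2.89) and Smad7 1.27 (0.543 to 3.0).

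Hdac6 upon GFP KD was at least 2-fold over the untagged control at 4 of the 8 rows, Lefty1, Smad7, Skil and Furin NM_011046, and 37.8% of all rows were. The exact test called the same 4 rows, and 23.3% of all rows. Skil, with 24 reads against 4, had the largest ratio, 12.0 (4.12 to 47.5, adjusted p = 2.82e-06 by the exact test), at percentile 99.6 of all ratios. Lefty1, with 28 reads against 14, had a ratio of 4.0 (2.03 to 8.21, adjusted p = 0.000314 by the exact test). Furin NM_011046 had a ratio of 4.66 (1.68 to 14.8) and Smad7 2.83 (1.27 to 6.49). Nodal (1.54, 0.813 to 2.86), Lefty2 (1.22, 0.654 to 2.24), Gdf3 (0.709, 0.321 to 1.45) and the other Furin TSS (1.06, 0.415 to 2.51) did not pass.

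The Hdac6 ratios have to be read against the whole table, since the median over all rows was itself 1.71. Rows with the GC content of Smad7 had a median of 4.0, and Smad7 was below it. The 13 rows in the bin of Furin NM_011046 had a median of 9.49, so its 4.66 was also below, although that bin is thin. Lefty1 was 1.85 times and Skil 2.1 times the median of their bins (2.16 and 5.71). Measured in this way, Skil was the only one of the 8 rows more than 2-fold over its bin. Over the whole table, 3529 of 36072 rows were at least 2-fold over theirs. None of the 8 rows passed the exact test. The spans of single reads also differed, at 148 bp in the Hdac6 samples and 299 bp in the untagged control, so an Hdac6 profile is sharper at the same number of reads. The part of base composition and read span in the Hdac6 ratios was not tested.

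p400 was measured with another antibody, so the untagged control gives a level for comparison and not its background. p400 upon GFP KD was at least 2-fold over that level at 3 rows, Lefty1, Smad7 and Skil, against 32.4% of 22458 rows. Lefty1 had a ratio of 2.48 (1.31 to 4.96) and Smad7 2.67 (1.35 to 5.64), and both passed the exact test (adjusted p = 0.0245 and 0.0184), as 17.7% of rows did. Skil had 2.97 (0.918 to 12.5). Against the medians of their GC bins (1.83, 2.53 and 2.58), Lefty1 was at 1.36, Smad7 at 1.06 and Skil at 1.15, none past 2-fold, and none of the 8 rows passed the exact test when GC-matched or with equal totals. Nodal had 1.09 (0.627 to 1.91) and Gdf3 0.708 (0.398 to 1.25), below the median of 1.57 over all rows. Lefty2 was 2.12-fold lower than the untagged level (ratio interval 0.241 to 0.89), in a direction that 2.77% of rows passed. All 3 comparisons use the same untagged sample, so its high counts at Lefty2, Gdf3 and Nodal enter each of them.

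**Figure D3:**
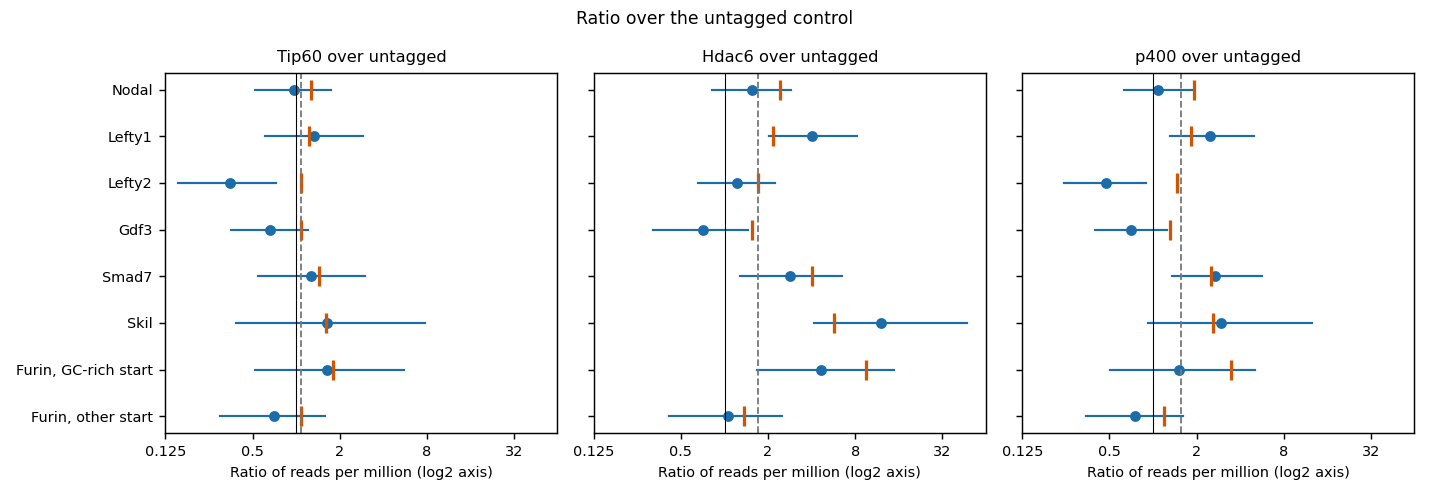
Ratio of rpm over the untagged control (horizontal, log2 axis) for Tip60, Hdac6 and p400 upon GFP KD at the 8 rows, with 95% exact intervals as bars. The solid line is 1, the dashed line the median of all rows and the orange mark the median of rows with like GC content. Tip60 at Nodal sits at 0.96, and Hdac6 at Skil at 12.0.

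The profiles show where the Flag reads lay. At Nodal, Tip60 upon GFP KD had 4 reads from -500 to 0 bp and 18 from 0 to 500 bp, and the untagged control 9 and 17. The untagged control had its largest count, 19 reads, from 1000 to 1500 bp, where Tip60 had 14. Both Flag samples thus had most promoter reads past the TSS. Hdac6 upon GFP KD followed with 5 reads before and 16 after the TSS, and p400 with 13 and 17. At Skil the untagged control had 1, 2 and 2 reads in the 500 bp windows between -1000 and 500 bp, where Hdac6 had 14, 15 and 9.

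The region of Nodal that the study used for ChIP-qPCR lies at chr10:60879728-60879994, from -1320 to -1054 from the TSS and outside the promoter window. The mean coverage over these 267 bases was 0.124 ppm for Tip60 in control cells and 0.0373 ppm after Hdac6 KD, with 0.423 ppm in the untagged control. p400 had 0.198 ppm in control cells and 0.25 ppm after Hdac6 KD. These values rest on 1 to 9 reads each, and Tip60 was not above the untagged control in this stretch either. From its ChIP-seq, the study gave Nodal as an example of a differentiation gene with much less Tip60 past the TSS upon Hdac6 KD. It also reported Flag ChIP-qPCR at target genes, performed with biological replicates. Those qPCR values were not used here.

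**Figure D4:**
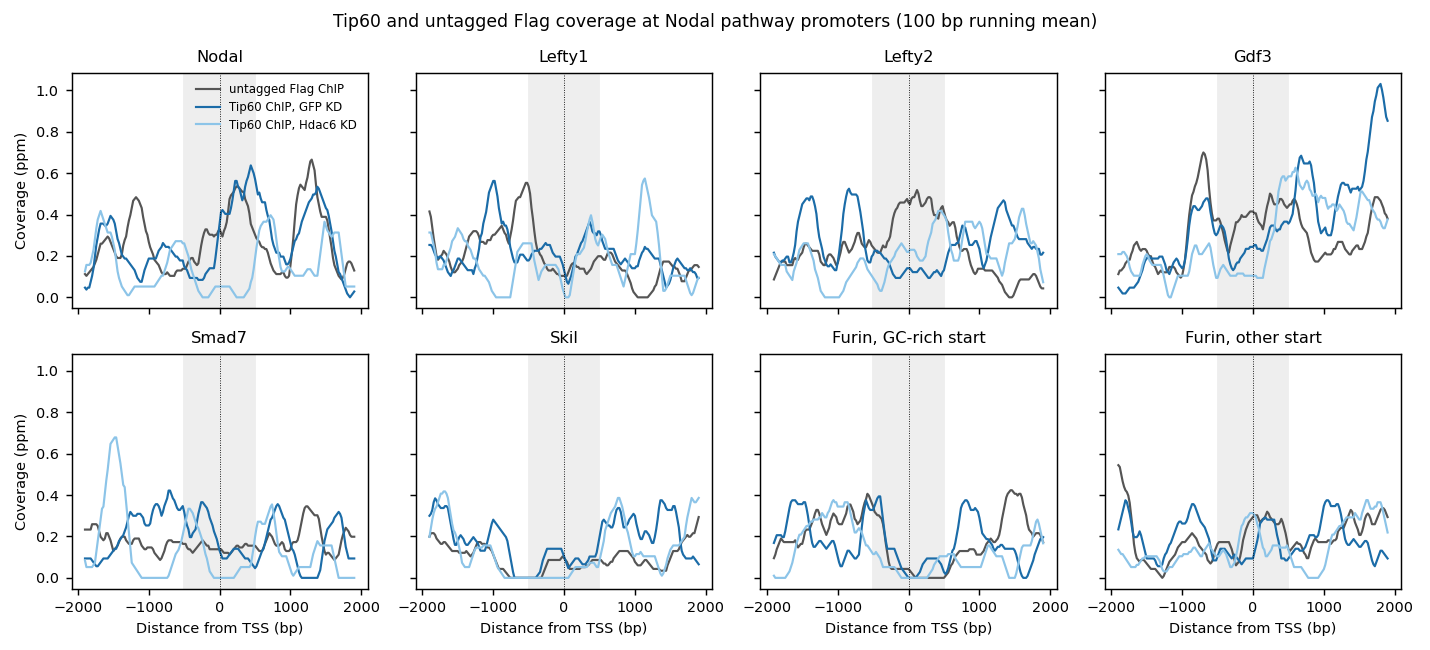
Coverage in ppm (vertical, running mean over 100 bp) by distance from the TSS (horizontal, bp) for the untagged control and for Tip60 with either knockdown. The grey band is the promoter window. From 0 to 500 bp after the Nodal TSS, Tip60 upon GFP KD and the untagged control rise together, and Tip60 upon Hdac6 KD holds 1 read. From 500 to 1000 bp Tip60 upon Hdac6 KD holds 9 reads, against 12 upon GFP KD and 7 in the untagged control.

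To ask whether Tip60 binding depends on Hdac6, Tip60 reads upon Hdac6 KD were compared with those upon GFP KD. Nodal, Skil and Furin NM_011046 were at least 2-fold lower, 3 of 8 rows against 19.5% of 36050 rows. Nodal had the largest loss in reads, from 23 to 4, a level 5.16-fold lower (ratio 0.194, 0.0487 to 0.567). The exact test gave it an unadjusted p of 0.000708 and an adjusted p of 0.0694, which misses the threshold of 0.05 that 0.444% of rows passed. The study had shown Nodal as an example of this loss from its own ChIP-seq of these conditions. The p and the interval thus describe these reads and give no independent support. Skil went from 6 to 1 read (ratio 0.186, 0.00404 to 1.53) and Furin NM_011046 from 9 to 3 (0.371, 0.0646 to 1.49), counts too low to tell a loss from no change. Smad7 had 0.557 (0.19 to 1.47), Lefty1 0.786 (0.343 to 1.75) and Gdf3 0.821 (0.381 to 1.73). Lefty2 had 1.56 (0.644 to 3.92) and the other Furin TSS 1.11 (0.438 to 2.83). The median of the 8 ratios was 0.671, and that of all rows 0.835.

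Base composition sets these rows apart. Rows like Furin NM_011046 and Skil had median ratios of 0.418 and 0.379, so the ratio of Furin NM_011046 was 0.889 of its bin's median and that of Skil, with 6 and 1 reads, was 0.489 of it and still past 2-fold. Rows like Nodal had a median of 0.789, and Nodal was at 0.246 of it, the lowest of the 8 rows. Over the whole table, 4762 of 36050 rows were at least 2-fold below the median of their bin. The loss at Nodal lay after the TSS: from -100 to 300 bp, Tip60 had 12 reads in control cells and 1 after Hdac6 KD (ratio 0.0928, 0.00217 to 0.627), while from -600 to -200 bp it had 4 in each. A read of 299 bp can reach both windows, and the difference between them was not tested. Because the Tip60 level upon GFP KD was close to the untagged level, the level upon Hdac6 KD was 5.38-fold below the untagged control (ratio 0.186, 0.0471 to 0.536), whereas the median row was at 0.966 of it.

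p400 upon Hdac6 KD was at least 2-fold lower than upon GFP KD at Nodal, Lefty1 and Smad7, 3 of 8 rows against 21.7% of 22474 rows. All 3 passed the exact test, which 13.3% of rows did. Smad7 had the strongest change, from 35 to 14 reads, 3.1-fold lower (ratio 0.323, 0.16 to 0.615, adjusted p = 0.00542 by the exact test). Nodal went from 31 to 16 reads (0.416, 0.213 to 0.785, adjusted p = 0.039 by the exact test) and Lefty1 from 38 to 22 (0.467, 0.263 to 0.81, adjusted p = 0.0349 by the exact test). Gdf3 had 0.571 (0.288 to 1.11), Skil 0.62 (0.244 to 1.53) and Furin NM_011046 0.968 (0.383 to 2.5). Lefty2 had 1.46 (0.768 to 2.88) and the other Furin TSS 1.38 (0.687 to 2.89).

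The median p400 ratio over all rows was 0.711, and it was 0.57 in the GC bin of Smad7, 0.598 in that of Nodal and 0.631 in that of Lefty1. Against these medians Smad7 was at 0.566, Nodal at 0.696 and Lefty1 at 0.74, none past 2-fold, while Lefty2 was at 1.98. At Nodal, p400 had 16 reads in control cells and 5 after Hdac6 KD from -100 to 300 bp (ratio 0.252, 0.0722 to 0.72). From -600 to -200 bp it had 10 in each (ratio 0.807, 0.301 to 2.16). These intervals overlap, and the difference between the windows was not tested. At Smad7 p400 reads were fewer on both sides of the TSS, with 18 in control cells and 7 after Hdac6 KD from -500 to 0 bp and 17 and 7 from 0 to 500 bp.

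In the other direction, Hdac6 reads upon Tip60 KD were compared with those upon GFP KD. Lefty2 was the single row at least 2-fold lower, from 19 to 6 reads, 2.52-fold lower (ratio 0.397, 0.13 to 1.03), where 7.41% of 35850 rows were. The exact test gave it an adjusted p of 1 and called 0% of all rows lower. The other 7 ratios ran from 0.558 (0.126 to 2.0) at Furin NM_001081454 to 1.26 (0.603 to 2.62) at Smad7. Skil had 1.2 (0.649 to 2.23), Lefty1 0.897 (0.479 to 1.65) and Nodal 0.816 (0.373 to 1.72), so a loss below 0.373 of the control level lay outside the interval at Nodal. The median over all rows was 1.03. At Skil and Lefty1, the rows with the most Hdac6, the ratio to the untagged control upon Tip60 KD remained at 14.4 (4.93 to 57.4) and 3.58 (1.72 to 7.67).

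**Figure D5:**
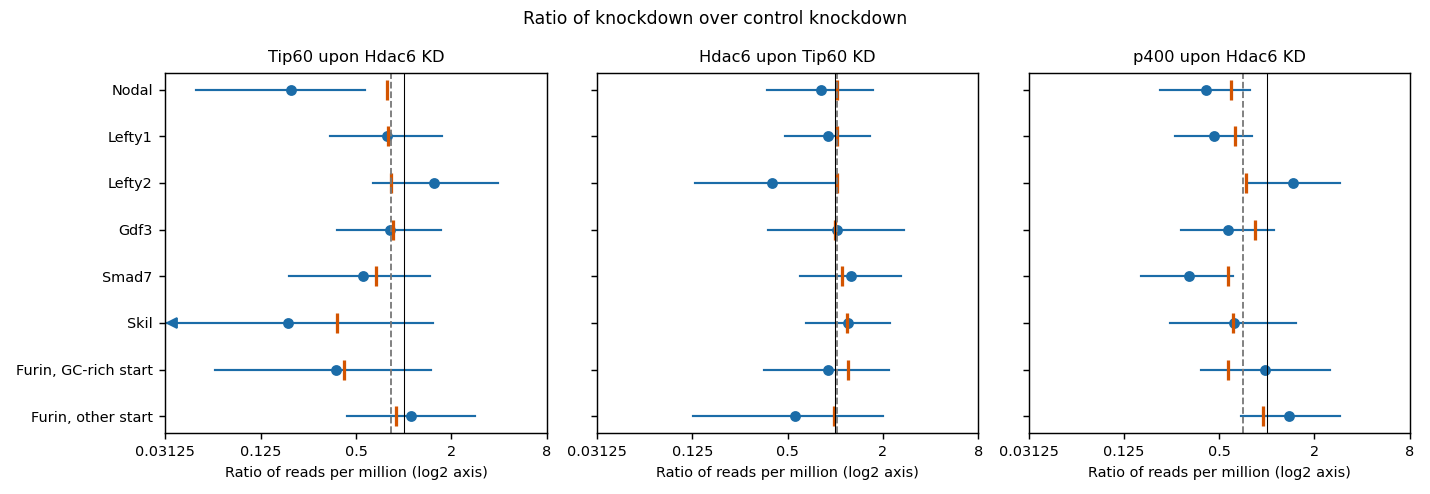
Ratio of rpm upon knockdown over GFP KD (horizontal, log2 axis) at the 8 rows, with 95% exact intervals as bars. An arrow marks an interval that runs past the axis, the solid line is 1, the dashed line the median of all rows and the orange mark the median of rows with like GC content. Nodal is at 0.194 for Tip60 and 0.416 for p400, and Lefty2 is above 1 for both.

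Other genes of the pathway were counted from a list of 30 ligands, receptors, transducers, inhibitors and targets, of which 29 had a row, 34 rows in all. Tgif2 had none. For Tip60 over untagged, 8 of the 34 rows were at least 2-fold higher, against 14.5% of all rows, and none passed the exact test, against 1.37%. The median ratio was 1.4, against 1.08 over all rows. The 8 rows included Acvr2a (10 reads against 2, ratio 5.42) and Acvr1c among the receptors and Gdf1 among the ligands. Among the inhibitors they were Smurf2 and 1 TSS each of Tgif1 (2.36, other TSS 0.887) and Drap1 (2.17, other TSS 1.47). The rest were the GC-rich TSSs of Smad2 and Smad4. None of the 8 rows of target genes reached 2-fold, and their median was 1.09.

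Hdac6 was at least 2-fold over untagged at 19 of the 34 rows, against 37.8% of all rows, and 12 passed the exact test, against 23.3%. The largest ratios were 12.0 (2.67 to 110) at Acvr2a, an activin receptor, and 10.5 (3.54 to 42) at the GC-rich TSS of Smad4. Smurf2, a ubiquitin ligase of the pathway, followed with 9.99 (3.35 to 40.2). These rows held only 2, 4 and 4 untagged reads. They lie at 71.1%, 74.6% and 75.1% GC, in bins with median ratios of 4.0, 4.28 and 5.73 over all rows. The GC-poor TSS of Smad4 had a ratio of 0.908. Smad2, like Furin, has a GC-rich and a GC-poor TSS. Its ratio was 9.49 (3.15 to 38.4) at 80.2% GC and 0.266 (0.0296 to 1.15) at 36.9% GC. Among the ligands, Inhbb (3.23), Gdf1 (3.6) and Tgfb1 (2.18) were over 2-fold and Inhba, at 36.7% GC, was under it in the other direction (0.363). The targets over 2-fold included Mixl1 (5.71), Gsc (3.11), T (2.54) and 1 TSS of Foxa2 (2.4, other TSS 0.999). For p400 over untagged, 15 of the 34 rows were at least 2-fold higher, against 32.4% of all rows, and 8 passed the exact test, against 17.7%. The largest ratios were at Acvr2a (13.7, 3.48 to 118) and the GC-rich TSSs of Smad4 (6.17, 2.15 to 24.3) and Smad2 (5.26, 1.8 to 20.9). They rest on 2, 4 and 4 untagged reads. The GC-poor TSSs of Smad4 and Smad2 had 0.665 and 1.46.

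Upon Hdac6 KD, Tip60 was at least 2-fold lower at 7 of the 34 rows, against 19.5% of all rows, and higher at 1, Cfc1, a Nodal co-receptor (2.35), against 7.31%. The lower rows included the receptor Acvr1b (0.159), the ligands Gdf1 (0.186) and Inhba (0.371), Foxh1 (0.211) and Smurf1 (0.464). The other lower rows were the GC-rich TSS of Smad2 (0.418, GC-poor TSS 0.716) and 1 TSS of Foxa2 (0.428, other TSS 0.607). Foxh1, the DNA-binding partner of Smads at Nodal targets, was the 1 row of the 34 that passed the exact test, against 0.444% of all rows. It held 37 Tip60 reads in control cells (1.73 rpm, percentile 98.8) and 7 after Hdac6 KD (0.365 rpm), a ratio of 0.211 (0.0793 to 0.479, adjusted p = 0.0165 by the exact test). Its untagged count was 21 (0.907 rpm, percentile 92.2), so Tip60 was at 1.91 of untagged (1.09 to 3.44), whereas the ratio at Nodal was 0.96. p400 at Foxh1 held 41 and 21 reads (ratio 0.413, 0.232 to 0.716, adjusted p = 0.0119 by the exact test), and Hdac6 held 12 and 11.

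p400 upon Hdac6 KD was at least 2-fold lower at 12 of the 34 rows, against 21.7% of all rows, and 6 passed the exact test, against 13.3%: Acvr2a (0.296), Foxh1, the GC-poor TSS of Smad2 (0.269), both TSSs of Tgif1 (0.434 and 0.436), a repressor of Smads, and Eomes (0.378), a target that specifies mesendoderm. Gdf1 had a ratio of 2.32. The median was 0.585, against 0.711 over all rows. Hdac6 upon Tip60 KD was at least 2-fold lower at 1 row, Cfc1 (0.29, 0.053 to 1.05), against 7.41% of all rows. It was at least 2-fold higher at 3, against 7.75%. None passed the exact test, which called 0% of all rows lower and 0.00279% higher.

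The rows most like Nodal were sought by the smallest Euclidean distance over the 7 samples on the scale of log2(rpm + 0.1), among 22671 rows of other genes. They were Azin1 (distance 0.515), Rundc3b (0.546) and Ergic3 (0.638). Azin1 held 21 Tip60 reads in control cells and 4 after Hdac6 KD, with 21 in the untagged control, and Ergic3 held 18, 3 and 25. None of the 7 other pathway rows was as close, the nearest being Smad7 (1.4) and the farthest Skil (3.25). These rows were chosen for their likeness, so their shared values are a description.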

How the data were processed

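ChIP-seq was analysed from coverage signal that the authors deposited for 7 samples, in ppm every 20 bp from -2000 to 2000 bp of each TSS (201 positions). By the study's methods, single-end reads were collapsed with their occurrences kept, mapped to mm9, placed at a random match where several existed, extended and cleared of simple repeats. The methods give the same extension length for all reads. In the values, however, lone reads spanned 148 to 149 bp in the Hdac6 samples and 299 bp in the others. The reason for this difference is not given. The submitters' processing notes name CASAVA 1.8.2 and Bowtie. How ppm was normalized and the TSS list are not given in the sources used here. Random placement can move reads between repeats, and extension spreads them over neighbouring bins.

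All values (100% within 0.05 of a whole number) were multiples of a step, the worth of 1 read, so depth was known: 21339400, 19161100, 11586200, 9226740, 23146800, 25308200 and 31375500 reads for Tip60 (GFP KD, Hdac6 KD), Hdac6 (GFP KD, Tip60 KD), untagged and p400 (GFP KD, Hdac6 KD). Reads in a window are rounded quotients of the summed signal by the step and by the length a lone read covers. The p400 tables hold the 22704 rows with a RefSeq identifier and were joined by it. Ratios carry exact Clopper-Pearson intervals. A row was called past 2-fold, with a count of 0 set to 3 reads and no call where both samples held 3 or fewer. The second rule was an exact two-sided binomial test with Benjamini-Hochberg adjustment over all rows, at 0.05. Both cover counting error only, and the scripts were tested on simulated data. Positions were read from the mm9 genome and GENCODE annotation, with each file position counted from 0, as 40.4% of rows then fall on annotated starts.

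The members and lists were chosen with earlier results of these data known. All rows of the listed genes are reported. Other pathway genes were named where past 2-fold or highest or lowest of their role (1 target gene is not reported here), and the rows like Nodal were the 3 closest at least 4000 bp from any member. Alternatives were 4 other windows, equal totals, GC-matched ratios, a 1.5-fold cutoff, a minimum of 10 reads and RefSeq rows only. Python 3.11.15, numpy 2.4.6, scipy 1.17.1, pandas 2.3.3, Biopython 1.88 and matplotlib 3.10.9 were used.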

Additional observations from a re-analysis of the deposited data

How the results depend on the processing

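With 1 sample per condition, the variation between cultures cannot be estimated, no replicate could be left out, and no paired analysis was possible because no replicates exist. Of 272 ratios of single rows recomputed with other windows, equal totals or GC-matched medians, 35 lay on the other side of 1 from the reported ratio. Of the 272, 4 had been past 2-fold and turned past 1, and of the others 256 stayed within their counting interval and 12 left it. The 4 were Lefty1 for Hdac6 over untagged in the upstream window (0.908), Smad7 and Furin NM_011046 for Hdac6 over untagged when GC-matched (0.708 and 0.491), and Nodal for Tip60 upon Hdac6 KD in the upstream window (1.11). Low counts limit most rows.

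The number of the 8 rows past 2-fold was 0 for Tip60 over untagged. It became 1 (Skil) within 1000 bp, against 2227 of all 36228 rows tested. At a cutoff of 1.5-fold it became 2, against 10614 of 36083. GC matching left 1 row (Skil) of 4 for Hdac6 over untagged, against 3529 of all 36072 rows tested. It left 0 of 3 for p400 over untagged, against 1852 of 22458. It also left 0 of 3 for p400 upon Hdac6 KD, against 1258 of 22474. For p400 over untagged the upstream window left 1 (Smad7), against 6240 of 22367 rows. For p400 upon Hdac6 KD equal totals left 1 (Smad7), against 2426 of 22474, and the cutoff of 1.5-fold gave 5, against 9989. For Tip60 upon Hdac6 KD, 1 of 3 (Nodal) remained in the downstream window and with at least 10 reads. Of all rows, 8295 of 35722 and 5722 of 27634 were past 2-fold there. For Hdac6 upon Tip60 KD, Lefty2 was lost within 1000 bp and in the upstream window (0 rows). Of all rows, 1584 of 36126 and 3201 of 34200 were past 2-fold there. A cutoff of 1.5-fold gave 2, against 6415 of 35850.

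By the exact test, the 4 rows of Hdac6 over untagged became 2 (Lefty1 and Skil) in the downstream window and with equal totals, 1 (Skil) in the upstream window and 0 with GC matching. The 2 rows of p400 over untagged and the 3 of p400 upon Hdac6 KD became 0 with GC matching, with equal totals, within 250 bp and in the downstream and upstream windows. The smaller windows hold fewer reads, and the cause of the other changes was not tested.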

Other observations

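Tip60 upon GFP KD had more reads past the Gdf3 promoter than in it. It held 19, 16 and 29 reads from 500 to 1000, 1000 to 1500 and 1500 to 2000 bp after the TSS, where the untagged control held 12, 9 and 14. Upon Hdac6 KD Tip60 held 17, 13 and 14 there. These windows lie outside the comparisons above and were not tested.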
